A study of Mus musculus with 14 samples.

Results

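miR-204-5p and miR-211-5p are the mature miRNAs of the mouse miR-204 and miR-211 seed family, and they were taken by name from the count tables of whole epididymal tissue and of isolated epididymal epithelial cells. They are 2 of the 999 miRNA names listed in these tables, and both occur among the 900 names of the whole tissue table and the 677 names of the epithelial table. Small RNA had been sequenced from the caput, corpus and cauda, the proximal, middle and distal regions of the epididymis, the duct in which spermatozoa mature and are stored. Whole tissue gave 8 libraries (3 caput, 2 corpus and 3 cauda) with totals of 1243398 to 2135501 counts, and epithelial cells gave 6 libraries (2 of each region) with totals of 89039 to 362867 counts.

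All libraries came from untreated male Swiss mice of 8 weeks whose vessels were perfused with buffer before dissection, and the labels distinguish the groups by region and preparation. Tissue of several mice was pooled for each library, more of them for the isolated cells. Luminal spermatozoa were washed out before the epithelial cells were isolated, and the cells kept were those still in suspension after muscle cells and fibroblasts had attached to a culture plate. Whole tissue was extracted directly, with the cells of the duct wall, vessels and lumen. The GEO labels do not say whether libraries of a region came from separate pools of mice, so p-values measure the spread between these libraries, which may be technical. In 10 of 10 pairs of libraries of a group the counts differed by more than sampling noise, with a chi-square per degree of freedom of 11.0 to 75.5. In bulk RNA, fewer cells of a type and less RNA per cell cannot be told apart.

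A miRNA guides Argonaute proteins to messenger RNAs, and bases 2 to 8 from its 5′ end, the seed, do most of the target recognition, so miRNAs with a shared seed are expected to have overlapping targets. miR-204 and miR-211 are encoded in introns of the cation channel genes Trpm3 and Trpm1. They are best known from pigmented and ocular epithelium, such as the retinal pigment epithelium, where they maintain the differentiated state of the cells, and miR-204 is known to repress the transcription factor genes Meis2 and Runx2.

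The mature sequences are shown first because the counting of both members turns on a single base. They are from RefSeq on build GRCm38.p6, and the capitals mark the seed.
miR-204-5p: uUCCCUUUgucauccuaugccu
miR-211-5p: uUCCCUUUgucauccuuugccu
miR-7670-3p: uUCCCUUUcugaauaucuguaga
Each member is 22 bases long, and 21 of them are identical. The substitution from miR-204-5p to miR-211-5p is A17U, with positions counted from 1 at the 5′ end, so the base that tells the members apart lies outside the seed. In the RefSeq table, 3 of 1679 mature miRNAs have these bases 2 to 8. The remaining one, miR-7670-3p, was listed in whole tissue alone and had 0 counts in all 8 libraries.

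The hairpins show where the mature arms lie, and here the capitals mark the 5p and 3p arms.
Mir204: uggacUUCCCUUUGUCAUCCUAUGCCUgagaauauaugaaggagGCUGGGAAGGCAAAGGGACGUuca
Mir211: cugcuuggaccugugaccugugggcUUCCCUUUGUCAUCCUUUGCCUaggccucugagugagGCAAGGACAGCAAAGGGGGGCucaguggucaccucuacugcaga
Mir204 lies at chr19:22750605-22750672 on the plus strand, with the mature 5p arm at chr19:22750610-22750631. It sits in an intron of 18 of the 24 Trpm3 transcripts of GENCODE M21 and in an exon of 0, while the other 6 transcripts do not span it. Mir211 lies at chr7:64205806-64205911 on the plus strand, with the mature 5p arm at chr7:64205831-64205852. It sits in an intron of 12 of the 23 Trpm1 transcripts and in an exon of 0, while the other 11 do not span it. In the largest coding transcript of each host gene the hairpin is in intron 6. The 3p arms differ more, with 14 of 21 bases identical.

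Because of this similarity, the sharing of reads between the members was examined before their levels. Counts are expected counts, which can be fractions, and how reads matching several miRNAs were divided is not given in the sources used here. Fractions occurred in 5 of 8 whole tissue libraries and in 1 of 6 epithelial libraries, in caput libraries 2 and 3, both corpus libraries and cauda library 2 of whole tissue and in caput library 1 of the epithelial cells. Wherever miR-204-5p ended in 0.5, so did miR-211-5p, and the sum of both was whole within 0.01 in 14 of 14 libraries. The fractions therefore added up within the family.

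Other pairs of near-identical miRNAs were examined in the same way. Among whole tissue names with a RefSeq sequence (755 of 900), 21 pairs beside miR-204-5p and miR-211-5p shared their first 16 bases, and 14 of these pairs carried fractions. In 8 of the 14 the sum of the pair was whole in every library with a fraction, as in let-7g-5p with let-7i-5p, miR-103-3p with miR-107-3p, miR-141-3p with miR-200a-3p and miR-27a-3p with miR-27b-3p. Among epithelial names (513 of 677 with a sequence) there were 17 such other pairs, 13 with fractions and 7 with whole sums. With the members included, 66 names in whole tissue and 52 in epithelial cells carried a fraction, and 24 and 22 of them belonged to a pair.

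miR-204-5p was an abundant miRNA of the caput and fell at every step along the duct. Its counts in the 3 whole tissue caput libraries were 21988, 20552.5 and 24835.5. Both corpus libraries held fewer, 7940.5 and 7688.5. The 3 cauda libraries held fewest, with 557, 531.5 and 631. No library of a region overlapped with a library of another region, and the order caput, corpus, cauda held for every library. In CPM, counts relative to the library total after adjustment by TMM factors, the caput level was 13984 ± 306 (SD, n = 3). The corpus level was 5488 ± 629 (SD, n = 2), and the cauda level was 329 ± 42.7 (SD, n = 3). Among the 360 miRNAs identified in whole tissue (mean count above 10 in a region), it ranked 15 in all 3 caput libraries, 21 and 24 in those of the corpus, and between 93 and 107 in those of the cauda.

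The fall was called in all 3 comparisons of whole tissue, where called means a change of 2-fold or more with an adjusted p from limma-voom under 0.05. From caput to corpus miR-204-5p fell 2.56-fold (95% interval 2.17 to 3.01, log2 change -1.35, SE 0.11, adjusted p = 5.8e-06 from limma), in a comparison where 15.9% of 334 miRNAs tested were called as falling. It had the 35th largest fall there (rank 35). From corpus to cauda it fell 16.7-fold (13.9 to 20.2, log2 change -4.07, SE 0.12, adjusted p = 4.2e-09), with 12.9% of 341 miRNAs called as falling. From caput to cauda it fell 42.8-fold (36.2 to 50.6, log2 change -5.42, SE 0.11, adjusted p = 8.8e-11), with 25.4% of 355 called as falling. Both of these were the largest falls among the miRNAs tested (rank 1). On the log2 scale the step from corpus to cauda was the larger one, while in CPM the difference between the means of caput and corpus was the larger. The median log2 change of all miRNAs was -0.05, 0.05 and -0.05 in the same order. Scaling by library totals in place of TMM moved these medians by 0.33, 0.02 and 0.35, and miR-204-5p then changed by -1.02, -4.05 and -5.07 on the log2 scale.

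**Figure D1:**
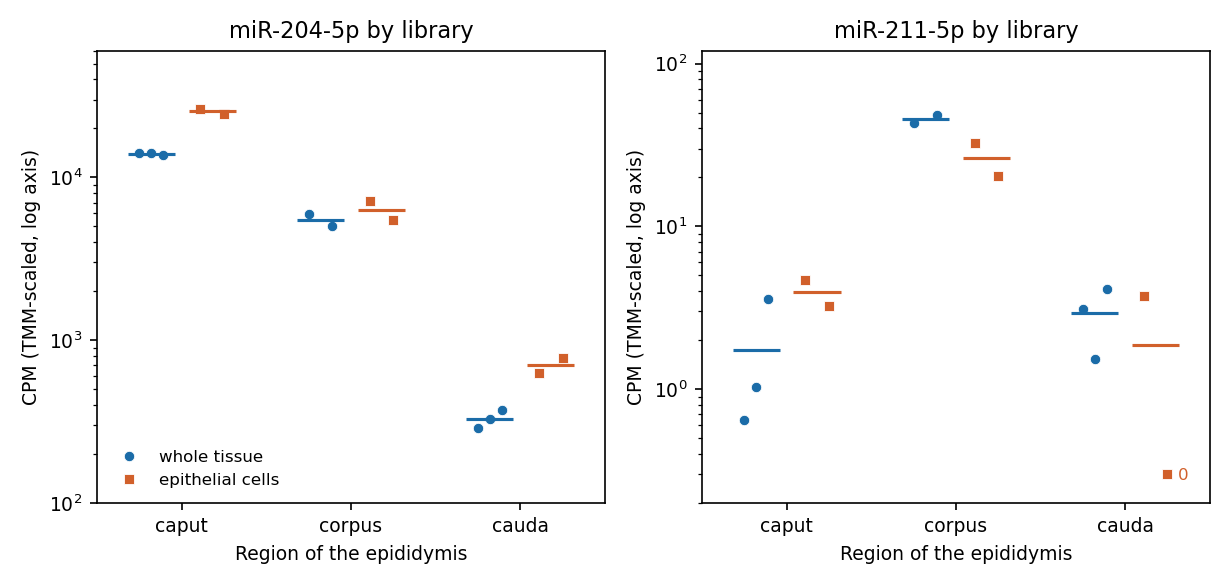
Level of miR-204-5p and miR-211-5p in CPM (TMM-scaled, log axis) by region in whole tissue and epithelial cells, with 1 point per library (circles for whole tissue, squares for epithelial cells) and a bar at the mean of the region. miR-204-5p falls from caput to cauda in both preparations, while miR-211-5p is highest in the corpus (45.6 CPM in whole tissue), and the epithelial cauda library with 0 counts of miR-211-5p is drawn at the foot of the axis and marked 0.

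The isolated epithelial cells showed the same order. The caput libraries held 8467.5 and 7611 counts of miR-204-5p, the corpus libraries 878 and 533, and the cauda libraries 169 and 163. These libraries differ widely in depth, but on the CPM scale too no regions overlapped. The caput level was 25435 ± 1292 CPM (SD, n = 2), against 6284 ± 1189 (SD, n = 2) for the corpus and 704 ± 106 (SD, n = 2) for the cauda. miR-204-5p made up 2.34% of the counts of a caput library, against 1.21% on average in whole tissue caput. Its rank among 216 identified miRNAs was 13 and 12 for caput, 22 and 25 for corpus and 80 and 72 for cauda libraries.

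All 3 epithelial comparisons of miR-204-5p were called as well. The fall from caput to corpus was 4.06-fold (95% interval 3.02 to 5.47, log2 change -2.02, SE 0.19, adjusted p = 0.00047 from limma), where 5.85% of 205 miRNAs were called as falling. The fall from corpus to cauda was 8.95-fold (6.37 to 12.6, log2 change -3.16, SE 0.21, adjusted p = 8.1e-05), where 4.17% of 192 were. The fall from caput to cauda was 36.4-fold (26.1 to 50.7, log2 change -5.19, SE 0.21, adjusted p = 1.6e-06), where 12.0% of 216 were. It ranked 11 among the falls of the first step and 1 in both comparisons with the cauda, as in whole tissue. Every left-out library and every alternative run on the comparisons between regions left the 6 calls of miR-204-5p and their direction as they were.

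miR-211-5p followed a different course and was a miRNA of the corpus. In whole tissue its counts were 1, 1.5 and 6.5 in the caput libraries, 57.5 and 73.5 in the corpus libraries and 6, 2.5 and 7 in the cauda libraries. Both corpus libraries lay far above every caput and cauda library, and caput and cauda overlapped. The corpus level was 45.6 ± 3.71 CPM (SD, n = 2), against 1.75 ± 1.59 (SD, n = 3) for the caput and 2.92 ± 1.30 (SD, n = 3) for the cauda. In the corpus it ranked 200 and 191 among the 360 identified miRNAs, a middle rank.

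From caput to corpus miR-211-5p rose 24.9-fold (95% interval 11.3 to 55.2, log2 change 4.64, SE 0.51, adjusted p = 4.9e-05 from limma), where 14.1% of miRNAs were called as rising. In the same step miR-204-5p fell 2.56-fold, and the intervals of the members lie on opposite sides of 0. From corpus to cauda it fell 16.1-fold (8.25 to 31.6, log2 change -4.01, SE 0.43, adjusted p = 4.5e-05), where 12.9% were called as falling. Here the intervals of the members overlapped. In both comparisons miR-211-5p passed the count limit through the corpus alone (mean count 65.5, against 3 for the caput and 5.17 for the cauda), so a large difference was built into its being tested, its size among the miRNAs tested is not ranked, and the counts by library above are the measurement. With all miRNAs of at least 1 count tested, and miR-211-5p had at least 1 count in all 8 libraries, the log2 changes were 4.68 (adjusted p = 5.2e-06 from limma) and -4.03 (adjusted p = 4.2e-06). Between caput and cauda miR-211-5p was not tested because its mean count was 10 or less in both regions, and the log2 ratio of the mean CPM was 0.74.

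**Figure D2:**
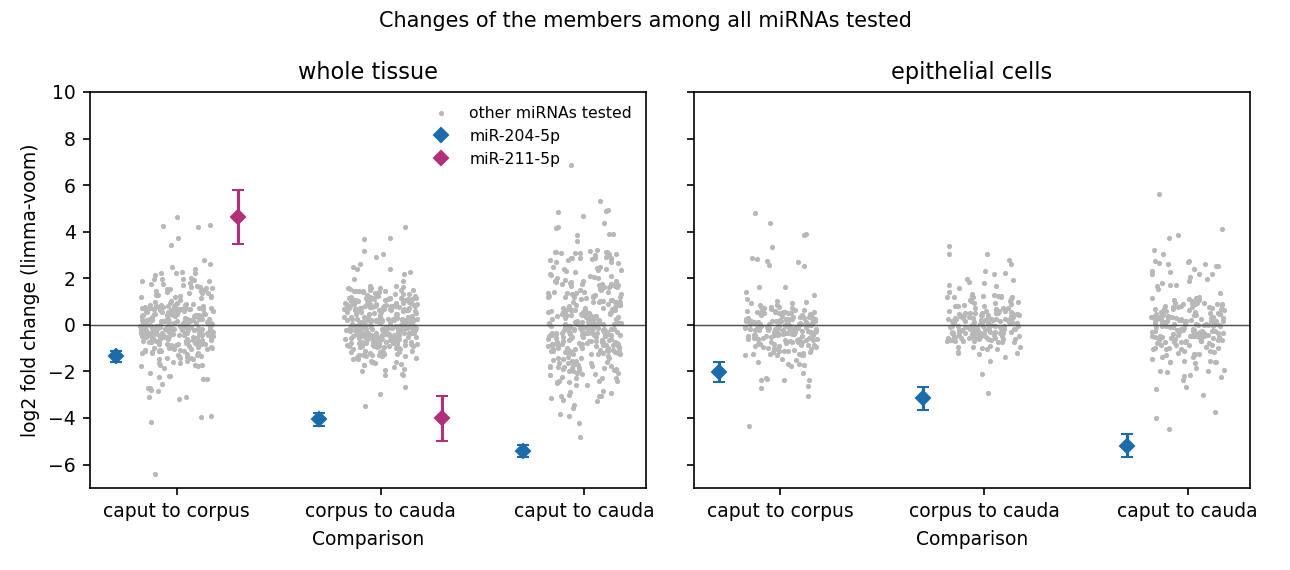
Log2 fold change from limma-voom in the 3 comparisons of regions for whole tissue (left) and epithelial cells (right), with grey points for all other miRNAs tested, blue for miR-204-5p and purple for miR-211-5p, and bars for the 95% intervals of the members. miR-204-5p is the lowest point in the comparisons of corpus or caput with cauda in both preparations, and miR-211-5p changes by 4.64 from caput to corpus and by -4.01 from corpus to cauda in whole tissue.

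In epithelial cells miR-211-5p was near the limit of detection at this depth. The caput libraries held 1.5 and 1 counts, the corpus libraries 4 and 2, and the cauda libraries 1 and 0. The corpus level was 26.4 ± 8.51 CPM (SD, n = 2), against 3.94 ± 1.02 (SD, n = 2) for the caput and 1.86 ± 2.63 (SD, n = 2) for the cauda, with both corpus libraries above the other 4. No region had a mean count above 10, so no comparison was tested, and the log2 ratios of the mean CPM were 2.74 for corpus over caput and -3.83 for cauda over corpus. With the share that miR-211-5p had in whole tissue corpus, the epithelial corpus libraries would have held 7.35 and 4.46 counts, so the numbers expected there were small as well.

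The share of miR-211-5p in the summed counts of the family does not depend on how libraries are scaled. In whole tissue it was 0.00455%, 0.00730% and 0.0262% in the caput libraries (mean 0.0127% ± 0.0118, SD, n = 3). It was 0.719% (exact 95% interval 0.551 to 0.936) and 0.947% (0.749 to 1.20) in the corpus libraries. In the cauda libraries it was 1.07%, 0.468% and 1.097% (mean 0.877% ± 0.354, SD, n = 3), with exact intervals between 0.116 and 2.31. Every corpus and cauda library was above every caput library, while corpus and cauda overlapped. The caput mean rests on library 3, and it was 0.00592% without that library. Intervals of shares were computed on rounded counts and cover counting error only.

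In epithelial cells the share was 0.0177% and 0.0131% for caput, 0.454% and 0.374% for corpus and 0.588% and 0% for cauda libraries. The cauda library with 0 counts of miR-211-5p held 163 counts of the family, which allows a share of up to 1.84% by the limit of 3 counts, so it does not tell the cauda apart from the other regions. Pooled over the libraries of a region, the epithelial share was 0.0155% (exact interval 0.00385 to 0.0545) in the caput and 0.423% (0.156 to 0.919) in the corpus. These pooled intervals of caput and corpus did not overlap, and in whole tissue neither did those of single libraries. By single epithelial library, the interval of corpus library 2 (0.0453 to 1.34) overlapped those of both caput libraries (up to 0.0853 and 0.0732). The interval of corpus library 1 (0.124 to 1.16) did not. In both preparations miR-204-5p made up at least 98.9% of the family in every library.

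**Figure D3:**
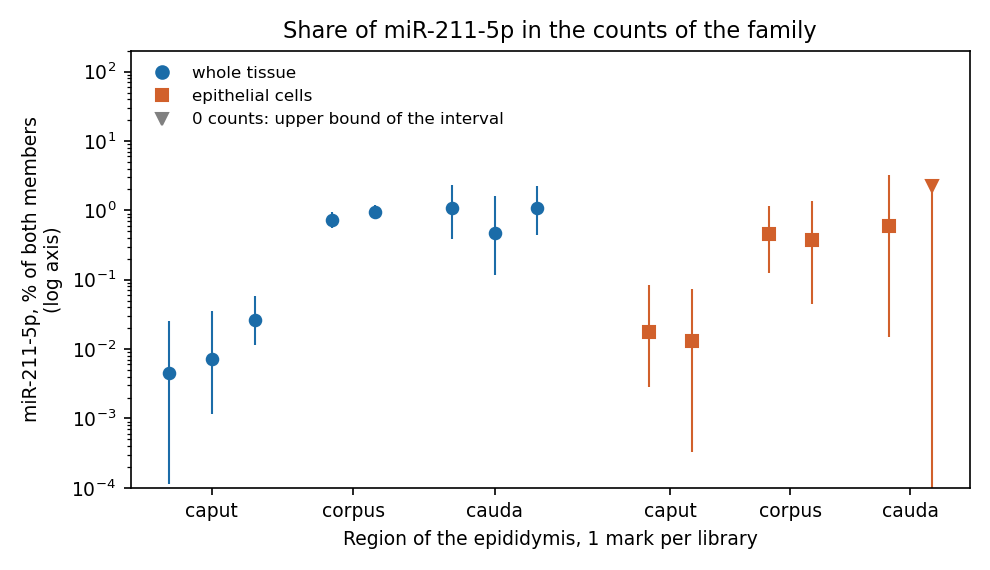
Share of miR-211-5p in the summed counts of miR-204-5p and miR-211-5p (percent, log axis), with 1 mark per library by region for whole tissue (circles) and epithelial cells (squares), and vertical lines for exact 95% binomial intervals. The caput libraries lie at or below 0.0262%, and all other libraries with counts lie at or above 0.374%, while the triangle marks the upper bound for the library with 0 counts.

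The number of shared reads has an upper limit if each such read were divided equally between both members, an assumption that was not tested. The limit is then 2 reads for each count of miR-211-5p. It was 2, 3 and 13 reads in the whole tissue caput libraries (at most 0.0523% of the family), 115 and 147 reads in the corpus libraries (1.44% and 1.89%) and 12, 5 and 14 reads in the cauda libraries (at most 2.19%). In epithelial cells it was 3 and 2 reads for caput, 8 and 4 for corpus and 2 and 0 for cauda libraries. The limit covers all counts of miR-211-5p in every library, so these files do not give the number of reads that matched miR-211-5p alone. Adding the members together left the fall of miR-204-5p nearly the same, since miR-211-5p held so little of the sum.

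miR-204-3p, the mature product of the other arm of Mir204, was detected at a few counts per library. In whole tissue the caput libraries had 8, 3 and 7 counts of it, the corpus libraries 6 and 5 and the cauda libraries 0, 0 and 2. The 3p arm made up 0.0264% ± 0.0110 (SD, n = 3) of both arms for the caput, 0.0702% ± 0.00744 (SD, n = 2) for the corpus and 0.105% ± 0.182 (SD, n = 3) for the cauda. Both corpus libraries were above the 3 caput libraries, and the cauda ranged over both. Among epithelial libraries the arm had 3 and 0 counts for caput, 1 and 1 for corpus and 0 and 0 for cauda. It did not pass the count limit in any region, so it was not tested. miR-211-3p was not analysed here.

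The preparations were compared over the 194 names identified in both. miR-204-5p was higher in epithelial cells than in whole tissue of the same region in the caput, by 0.65 on the log2 scale (SE 0.12, adjusted p = 0.00021 from limma, 1.57-fold), and in the cauda, by 0.93 (SE 0.18, adjusted p = 0.00054, 1.91-fold). In the corpus the difference was 0.08 (95% interval -0.23 to 0.40, adjusted p = 0.65), and its sign changed without whole tissue corpus library 2 (-0.14), epithelial corpus library 1 (-0.05) or epithelial cauda library 1 (-0.06). These differences stand against 60.3%, 47.9% and 61.9% of miRNAs that differed between the preparations in caput, corpus and cauda at an adjusted p below 0.05. Preparation, depth and any difference in sequencing run cannot be told apart in them. Some miRNAs were named differently in each preparation, such as miR-126a-5p in whole tissue and miR-126-5p in epithelial cells. These were outside the 194 names and outside the scaling of the joint fit.

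The change of miR-204-5p from corpus to cauda differed between the preparations, with a fall that was smaller in epithelial cells by 0.85 on the log2 scale (95% interval 0.34 to 1.35, SE 0.24, adjusted p = 0.034 from limma, interaction of preparation and region). Such a difference was found for 8.76% of the 194 miRNAs. The call depended on single libraries, while the difference kept its direction without each library in turn (0.53 to 1.01). The adjusted p was 0.10 without whole tissue corpus library 1, 0.056 without corpus library 2, 0.067 without whole tissue cauda library 1 and 0.055 without cauda library 2. It was 0.11 without epithelial corpus library 2 and 0.21 without epithelial cauda library 2, where the difference was 0.53. From caput to corpus the fall was larger in epithelial cells by a log2 difference of -0.57 (interval -0.97 to -0.17), which did not pass the adjusted threshold (adjusted p = 0.094, 6.70% of miRNAs called). It passed without epithelial cauda library 1 (-0.73, adjusted p = 0.027) and without cauda library 2 (-0.81, adjusted p = 0.019). Over the whole way from caput to cauda the difference was 0.28 (interval -0.19 to 0.74, adjusted p = 0.37, 32.0% called), so a difference in the total fall was not shown, within that interval.

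The miRNAs with the most similar pattern to miR-204-5p were found by the Pearson correlation of log2 CPM across the libraries of a preparation, as a description of libraries that share 3 regions. Over the 8 whole tissue libraries they were miR-10b-5p (r = 0.99), miR-182-5p (0.99), miR-187-3p (0.99), miR-96-5p (0.99) and miR-17-5p (0.99), among 359 compared. Over the 6 epithelial libraries they were let-7c-5p (0.98), miR-148a-3p (0.98), let-7e-5p (0.97), miR-672-5p (0.97) and miR-467a-5p (0.97), among 215. The lists shared 0 miRNAs. miR-182-5p, which ranked 8 in the epithelial cells, and miR-148a-3p, which ranked 6 in whole tissue, came closest to being on both. miR-17-5p was furthest from it, with r = -0.38 and rank 135 of 215 in the epithelial cells.

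Their changes were smaller in size than that of miR-204-5p, a difference that was not tested. From caput to cauda the whole tissue miRNAs changed by -1.37 to -1.93 on the log2 scale, against -5.42 for miR-204-5p. The epithelial ones changed by -1.13 to -2.74, against -5.19. The pattern of miR-211-5p, added after its values were seen, was closest to that of miR-324-3p over the 8 whole tissue libraries (r = 0.97), which had 11.2 ± 0.0395 CPM (SD, n = 2) for the corpus, against 2.002 ± 1.33 (SD, n = 3) for the caput and 2.45 ± 1.16 (SD, n = 3) for the cauda. Both miRNAs passed the count limit through the corpus alone, so a peak in the corpus was built into their being compared.

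**Figure D4:**
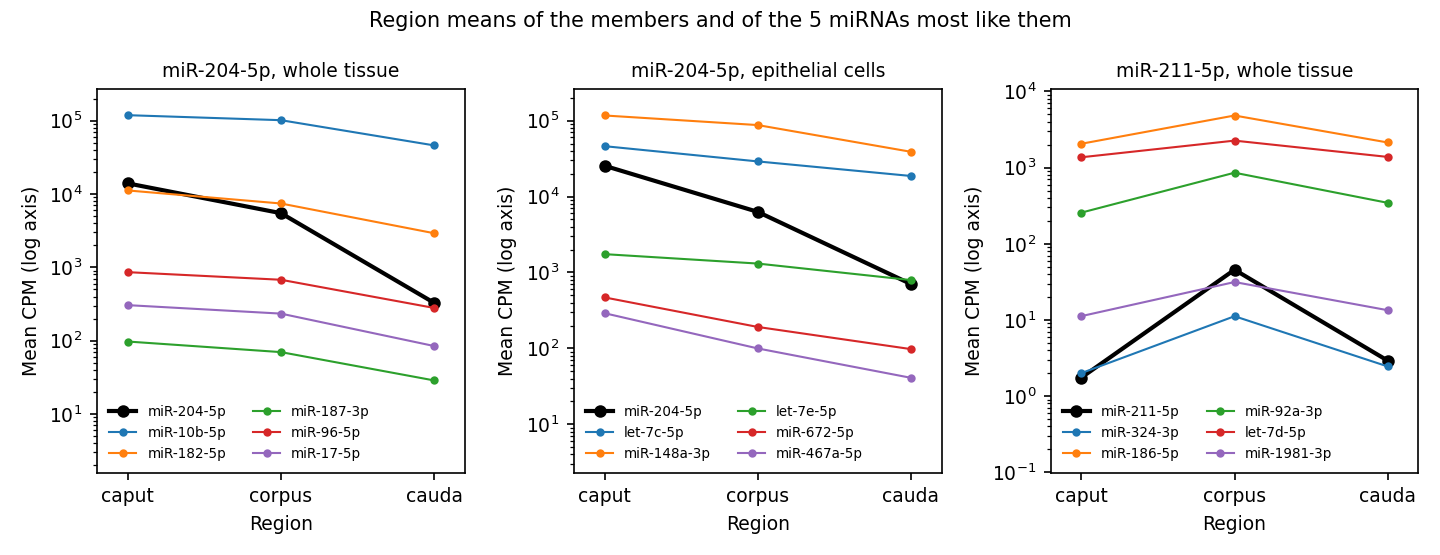
Mean CPM by region (log axis) of miR-204-5p and the 5 miRNAs most correlated with it in whole tissue (left) and in epithelial cells (middle), and of miR-211-5p and the 5 most correlated with it in whole tissue (right), with the member as a thick black line. The lines of the left and middle panels go down from caput to cauda, most steeply for miR-204-5p, and those of the right panel peak in the corpus, most steeply for miR-211-5p.

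Other miRNAs known from ocular and sensory epithelium were examined beside the family, miR-184-3p, miR-187-3p and the cluster of miR-182-5p, miR-183-5p and miR-96-5p. In whole tissue 4 of the 5 fell and 1 rose between caput and cauda, with a median log2 change of -1.76 against -0.05 over all miRNAs, of which 25.4% were called as falling and 27.9% as rising. In epithelial cells 1 of 5, miR-182-5p, fell and the other 4 were not called, with a median of -0.66 against -0.00 over all miRNAs, of which 12.0% were called as falling. From corpus to cauda 4 fell in whole tissue and 0 in epithelial cells by limma-voom, where 2 of 5, miR-184-3p and miR-182-5p, had an unadjusted p below 0.05. Of all miRNAs tested in that step, 12.9% were called as falling in whole tissue and 4.17% in epithelial cells, a background at which 0 of 5 is not a result about the list. The change of miR-204-5p was further from 0 than that of each of the 5 in both of these comparisons. In the step from caput to corpus 1 of 5 rose in each preparation, where 14.1% of all miRNAs tested in whole tissue and 6.34% of those in epithelial cells were called as rising.

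That one was miR-184-3p, an abundant miRNA of the cornea and lens, whose course resembled that of miR-211-5p. Its whole tissue level was 16.02 ± 6.22 CPM (SD, n = 3) for the caput, 293 ± 47.1 (SD, n = 2) for the corpus and 88.1 ± 10.9 (SD, n = 3) for the cauda, a log2 change of 4.23 in the first step (adjusted p = 1.1e-06 from limma). In epithelial cells it was 14.3 ± 2.59, 225 ± 72.3 and 75.6 ± 75.4 CPM (SD, n = 2 each), with a log2 change of 3.85 (adjusted p = 0.016). Unlike miR-211-5p it was thus tested in the epithelial cells. Its caput level there was below the count limit at this depth, so it passed through the corpus alone. A rise was therefore built into its being tested in that step.

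Markers of cell types also changed along the duct, some in the same direction as miR-204-5p and others in the opposite one. The 6 epithelial markers (the miR-200 family, miR-141-3p and miR-205-5p) were detected in both preparations, and 0 markers of any list were at 0 in all libraries. In whole tissue their summed level was 21881 to 23681 CPM for caput, 17395 to 18222 for corpus and 8185 to 9893 for cauda libraries, and 5 of 6 fell between caput and cauda (25.4% of all miRNAs tested). The 4 smooth muscle markers went from 53170–65899 CPM (caput) through 76293–80280 (corpus) to 223245–249545 (cauda), and 4 of 4 rose (27.9% of all tested). Most of that sum was miR-143-3p, with a mean of 58519 CPM for the caput and 237684 for the cauda. The cauda libraries spread widely for miR-133a-3p (272 ± 213 CPM) and miR-1a-3p (190 ± 152, SD, n = 3 each). In epithelial cells the epithelial sum did not fall, with 26042 to 28510 CPM for caput, 38704 to 40513 for corpus and 33642 to 41128 for cauda libraries, and 0 of 6 were called by limma-voom, although 4 had an adjusted p below 0.05 with changes under 2-fold (miR-200b-3p and miR-205-5p upward, miR-200c-3p and miR-429-3p downward). Of all miRNAs tested there, 13.9% rose and 12.0% fell. Smooth muscle markers were not absent from these cells, at 144764–195936, 210539–212659 and 158381–337075 CPM, and 0 of the 3 tested were called by limma-voom, with adjusted p between 0.29 and 1.00.

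Of the other lists, 3 of 3 red blood cell markers rose between caput and cauda in both preparations (27.9% and 13.9% of all miRNAs tested rose), from 83.4–95.2 to 831–1308 CPM in whole tissue and from 372–454 to 1564–2929 in epithelial cells. Leukocyte markers rose in 3 of 5 cases in whole tissue (966–1160 to 1948–1993 CPM) and in 2 of the 2 tested in epithelial cells (470–865 to 1380–1586). Germ cell markers rose in 8 of 10 cases in whole tissue (4233–5344 to 9811–12875 CPM) and in 3 of 7 tested in epithelial cells (3837–4384 to 2595–6219). Some of these markers were below the count limit in the caput. Among them were miR-144-3p (mean 3.72 CPM in whole tissue and 9.45 in epithelial cells) and, in whole tissue, miR-155-5p (2.69) and miR-883a-3p (3.48). They passed the limit through a later region alone, so a rise was built into their being tested against the caput. Between caput and cauda 0 of 2 endothelial markers were called by limma-voom in each preparation, although miR-126a-3p in whole tissue (adjusted p = 0.0024 from limma) and miR-126-5p in epithelial cells (adjusted p = 0.018) passed the adjusted p alone. The endothelial sum was 14776–18250 CPM for caput, 13945–14743 for corpus and 16398–17319 for cauda libraries of whole tissue. In epithelial cells it was 25517–35754 CPM for caput, 13092–14321 for corpus and 46640–56668 for cauda libraries, so it was lowest in the corpus without overlap.

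Single steps gave other counts. Both endothelial markers fell from caput to corpus in epithelial cells, where 5.85% of all miRNAs fell (log2 change -1.13 for miR-126-5p, adjusted p = 0.0096 from limma, and -1.27 for miR-126-3p, adjusted p = 0.010). Both rose in the step from corpus to cauda, where 6.77% of all miRNAs rose (1.91 and 1.82, adjusted p = 0.0013 and 0.0037). miR-204-5p fell in both steps. Of the epithelial markers 1 of 6 rose in the first step and 2 of 6 fell in the second in these cells, and of the germ cell markers 4 of 7 rose in the first, where 6.34% of all miRNAs rose in the first step and 4.17% fell in the second. In whole tissue 1 of 6 epithelial markers fell in the first step and 2 of 6 in the second, where 15.9% and 12.9% of all miRNAs fell. There 2 of 4 smooth muscle markers rose in the second, and 7 of 10 germ cell markers rose in each step, where 14.1% and 14.4% of all miRNAs rose. The part of these cell types in the change of miR-204-5p was not tested.

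Set against the epithelial markers, miR-204-5p was again lowest in the cauda. In whole tissue there were 0.618 ± 0.0171 counts of miR-204-5p for each count of an epithelial marker for the caput (SD, n = 3), 0.308 ± 0.0252 for the corpus (SD, n = 2) and 0.0368 ± 0.00679 for the cauda (SD, n = 3), a 16.8-fold difference between the means of caput and cauda. In epithelial cells the ratio was 0.933 ± 0.0123 for the caput, 0.159 ± 0.0351 for the corpus and 0.0188 ± 0.000159 for the cauda (SD, n = 2 each), a 49.6-fold difference. In the whole tissue this ratio fell less than the CPM of miR-204-5p (42.8-fold), and in the epithelial cells it fell more (36.4-fold). The marker sum of the epithelial cells leans on its largest member, miR-205-5p. That miRNA had 10996 ± 265 CPM for the caput and 21360 ± 1593 for the cauda (SD, n = 2 each), while miR-200c-3p and miR-429-3p went down. The ratio without miR-205-5p was not computed.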

How the data were processed

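Reads were trimmed and screened by the authors and aligned to the mouse genome (mm10) and to mature miRNAs of miRBase, and the submitters' processing notes name CASAVA 1.8.2, Bowtie 1.1.1 and limma. The values that the authors deposited are expected counts of reads for every mature miRNA, without normalization. The epithelial ones carry an added 0.001, which was removed here. Tests were run in R 4.3.3 on rounded values, with TMM factors from edgeR 4.0.16 and limma-voom from limma 3.58.1. Each preparation had its own fit, with a mean per region and Benjamini-Hochberg adjustment over all miRNAs with a mean count above 10 in either region compared. A joint fit tested the interaction of preparation and region and made calls by the adjusted p alone. The steps were tested on simulated data. Sequences and coordinates are from RefSeq (GRCm38.p6) and host genes from GENCODE M21.

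The members and lists were chosen with earlier results of these data known. Named miRNAs are the members, products of their hairpins, miRNAs sharing bases 2 to 7, the 5 most correlated with miR-204-5p in each preparation, near-identical pairs with fractions, 5 miRNAs of ocular epithelium and the cell type markers. Alternatives were edgeR's quasi-likelihood test, DESeq2 1.42.0 (test or size factors), library totals, other count limits, a replicate block, summed members, 2 regions alone and leaving out each library. Deviations from the region mean correlated between same-numbered whole tissue caput and cauda libraries with r of 0.22, 0.11 and 0.14. The numbers in the titles were taken to pair the libraries. Corpus and cauda gave 0.24 and 0.16, but caput and corpus gave -0.002 and -0.03. The column labels number the libraries through all regions with a gap before the corpus, so the pairing of the corpus libraries is uncertain.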

Additional observations from a re-analysis of the deposited data

Results flagged for a closer look

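The change of miR-204-5p from corpus to cauda differed between epithelial cells and whole tissue, by a log2 difference of 0.85 (adjusted p = 0.034 from limma, test of the interaction of preparation and region). The fall was 8.95-fold in epithelial cells and 16.7-fold in whole tissue. The difference passed the threshold in 8 of the 14 fits that each left out 1 library and did not pass in the other 6, with values between 0.53 and 1.01.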

How the results depend on the processing

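The called changes of miR-204-5p between regions, and those of miR-211-5p in whole tissue, kept their direction and call under every alternative that gave a value and without each library in turn. With at least 10 counts required in every library miR-211-5p gave no value. Without single libraries miR-204-5p ranged from -1.48 to -1.18, -4.17 to -3.92 and -5.51 to -5.32 on the log2 scale in whole tissue (caput to corpus, corpus to cauda and caput to cauda) and from -2.22 to -1.80, -3.35 to -2.96 and -5.34 to -4.96 in epithelial cells, and miR-211-5p ranged from 4.20 to 5.22 and -4.31 to -3.60. With all miRNAs of at least 1 count, miR-211-5p fell by 3.11 from corpus to cauda in epithelial cells (-3.11, adjusted p = 0.015 from limma), a change not tested otherwise, and the other comparisons it then allowed were not called. The corpus libraries held 4 and 2 counts of it and the cauda libraries 1 and 0, too few for this p-value to carry weight. The difference between preparations from caput to corpus passed the threshold with library totals (-0.84, adjusted p = 0.046) and with all shared names (-0.76, adjusted p = 0.045), and ranged from -0.82 to -0.44 without single libraries. That from corpus to cauda did not pass with all shared names (0.79, adjusted p = 0.11) and ranged from 0.53 to 1.01. That from caput to cauda was -0.28 without epithelial cauda library 2 (range to 0.39). The corpus difference between preparations was -0.14 without whole tissue corpus library 2, -0.05 without epithelial corpus library 1 and -0.06 without epithelial cauda library 1 (range to 0.22).

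The replicate block, from the numbers in the titles, gave -1.34, -4.08 and -5.42 for miR-204-5p in whole tissue and -2.02, -3.17 and -5.19 in epithelial cells, and 5.01 and -4.42 for miR-211-5p, and changed no call of the members. In epithelial cells same-numbered libraries correlated by 0.22, -0.07 and -0.12. With the cauda numbers exchanged, chosen after seeing the data, the block called 40, 32 and 64 miRNAs there, against 27, 22 and 52 as numbered and 25, 21 and 56 without it.

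Requiring at least 10 counts in every library changed the number of miRNAs called from 100 to 64 and from 189 to 115 in whole tissue (caput to corpus and caput to cauda) and from 56 to 28 in epithelial cells (caput to cauda). Testing all miRNAs of at least 1 count raised it to 53 and 37 in epithelial cells (caput to corpus and corpus to cauda), and without single libraries it was 10 to 30, 4 to 27 and 26 to 60 there. The causes of these shifts were not tested. Depth limits the values of miR-211-5p and miR-204-3p in epithelial cells, where no library held more than 4 counts of either.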
